A study of Danio rerio with 4 samples.

Results

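Gadd45 proteins are small stress-response proteins, and 7 of the 32520 genes in the deposited count table belong to their family in zebrafish. The members were found by gene symbol, as every row whose symbol begins with *gadd45*, apart from *gadd45gip1*. The symbol of that gene begins the same way, but it is no member of the family. The 7 members comprise 2 genes named *gadd45a*, 2 named *gadd45b* and 3 named *gadd45g*. The family was selected on results of these same libraries, in which the *gadd45a* copies were seen to differ between wt and *grwd1* crispants in opposite directions. The differences between the groups are therefore given for the members as a description, with intervals for their size but without p-values. Calls of members from the test over all genes appear below, and nothing is read from them. The name table used here gives all copies of a symbol the same name. A RefSeq table of the assembly GRCz12tu lists 6 *gadd45* symbols, 2 of them of *gadd45g*, but ties 0 of them to an Ensembl ID. The copies are therefore called by the digits that end their Ensembl IDs, with the *gadd45a* copies being 43581 (ENSDARG00000043581) and 104571 (ENSDARG00000104571), the *gadd45b* copies 13576 (ENSDARG00000013576) and 27744 (ENSDARG00000027744), and the *gadd45g* copies 16725 (ENSDARG00000016725), 19417 (ENSDARG00000019417) and 113103 (ENSDARG00000113103).

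Gadd45 genes were named for growth arrest and DNA damage. In mammals their mRNAs are induced within a short time by genotoxic and other stress, *Gadd45a* as a target of p53 and *Gadd45b* downstream of NF-kB and TGF-beta signals. The proteins have no enzymatic activity of their own and act by binding others, among them PCNA, the cell cycle inhibitor p21, the Cdk1 and cyclin B1 complex, and the kinase MTK1 (MAP3K4), which switches on p38 and JNK. They have also been tied to DNA repair and active DNA demethylation. In the zebrafish experiment they are of interest because the product of *grwd1* is an assembly factor of the large ribosomal subunit, and disturbed ribosome assembly can stabilize p53.

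RNA was sequenced from whole zebrafish larvae at 8 days post fertilization (dpf). The 4 libraries comprised 2 of wildtype larvae (wt) and 2 of *grwd1* crispants, with 15 larvae pooled per group. Crispants are first-generation larvae that had been injected as one-cell embryos with 100 pg of each of 2 guide RNAs against *grwd1* and 150 pg of Cas9 mRNA. They are mosaic, so that edited and unedited cells contribute to the same RNA, and whether wt embryos received an injection is not stated. The guides that define the crispant group were, 5′ to 3′ and as given in the sample labels:
gRNA1: gatacatgcggtaagcggag
gRNA2: actccaccgacagatcccat
The libraries held 15916216 to 18619802 counts. *grwd1* itself had 390 and 439 counts in the wt libraries and 123 and 102 in the crispant libraries, which fits the labels. The labels do not tell whether both libraries of a group were made from the same pool of larvae, so the spread behind intervals and p-values could be purely technical. Markers of gut, liver, pancreas, skin, muscle, nervous system, retina and lens were detected, as whole larvae would give. Marker names that matched no gene were left out of all marker lists. Blood markers were low. The 5 erythroid markers summed to 13.01 to 13.45 CPM in wt and 9.886 to 12.43 in crispants. This sum covers only the marker genes matched and is no measure of all erythroid RNA. CPM are normalised read counts, scaled to a common library size with TMM factors. Only 3 of the erythroid markers had enough counts to be tested, and 1 of 7 myeloid markers was at 0. Several marker lists differed between the groups. The summed level of 8 enterocyte markers was 1888 to 1908 CPM in wt and 2738 to 2889 in crispants. That of 8 neuronal markers was 2179 to 2201 and 1736 to 1740. In bulk RNA of this kind, fewer cells of a type and less RNA per cell cannot be told apart, and the part of such shifts in the values below was not tested.

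Of the 7 *gadd45* genes, the clearest difference was in *gadd45a* 43581, which was about doubled in crispants. It had 140 and 117 counts in the wt libraries and 276 and 305 in the crispant libraries. As normalised read counts these were 8.97 and 6.42 CPM in wt and 14.4 and 18.9 CPM in crispants. Both crispant libraries thus stood above both wt libraries, and groups did not overlap in 54.6% of all genes tested either. The libraries within a group also lay apart, by 0.48 on the log2 scale in wt and 0.40 in crispants. The mean went from 7.69 ± 1.80 to 16.7 ± 3.24 CPM (SD, n = 2), a fold change of 2.17 (95% interval 1.65 to 2.86). On the log2 scale the change was 1.12, with a standard error of 0.20. Taking each crispant library against each wt library, the log2 ratios ran from 0.68 to 1.56. Among the 20479 genes tested, 96.0% had a lower log2 fold change.

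The other copy, *gadd45a* 104571, was slightly lower in crispants. It had 546 and 578 counts in wt and 492 and 428 in crispants, or 35.0 and 31.7 CPM against 25.6 and 26.6 CPM. The groups again did not overlap, as in 54.6% of all genes tested, but the gap between them was small. Its log2 fold change was -0.35 (standard error 0.13, 95% interval -0.60 to -0.10), a fold of 0.783. The pairwise ratios between libraries ran from -0.45 to -0.26 on the log2 scale, and 14.2% of the genes tested had a lower log2 fold change.

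**Figure D1:**
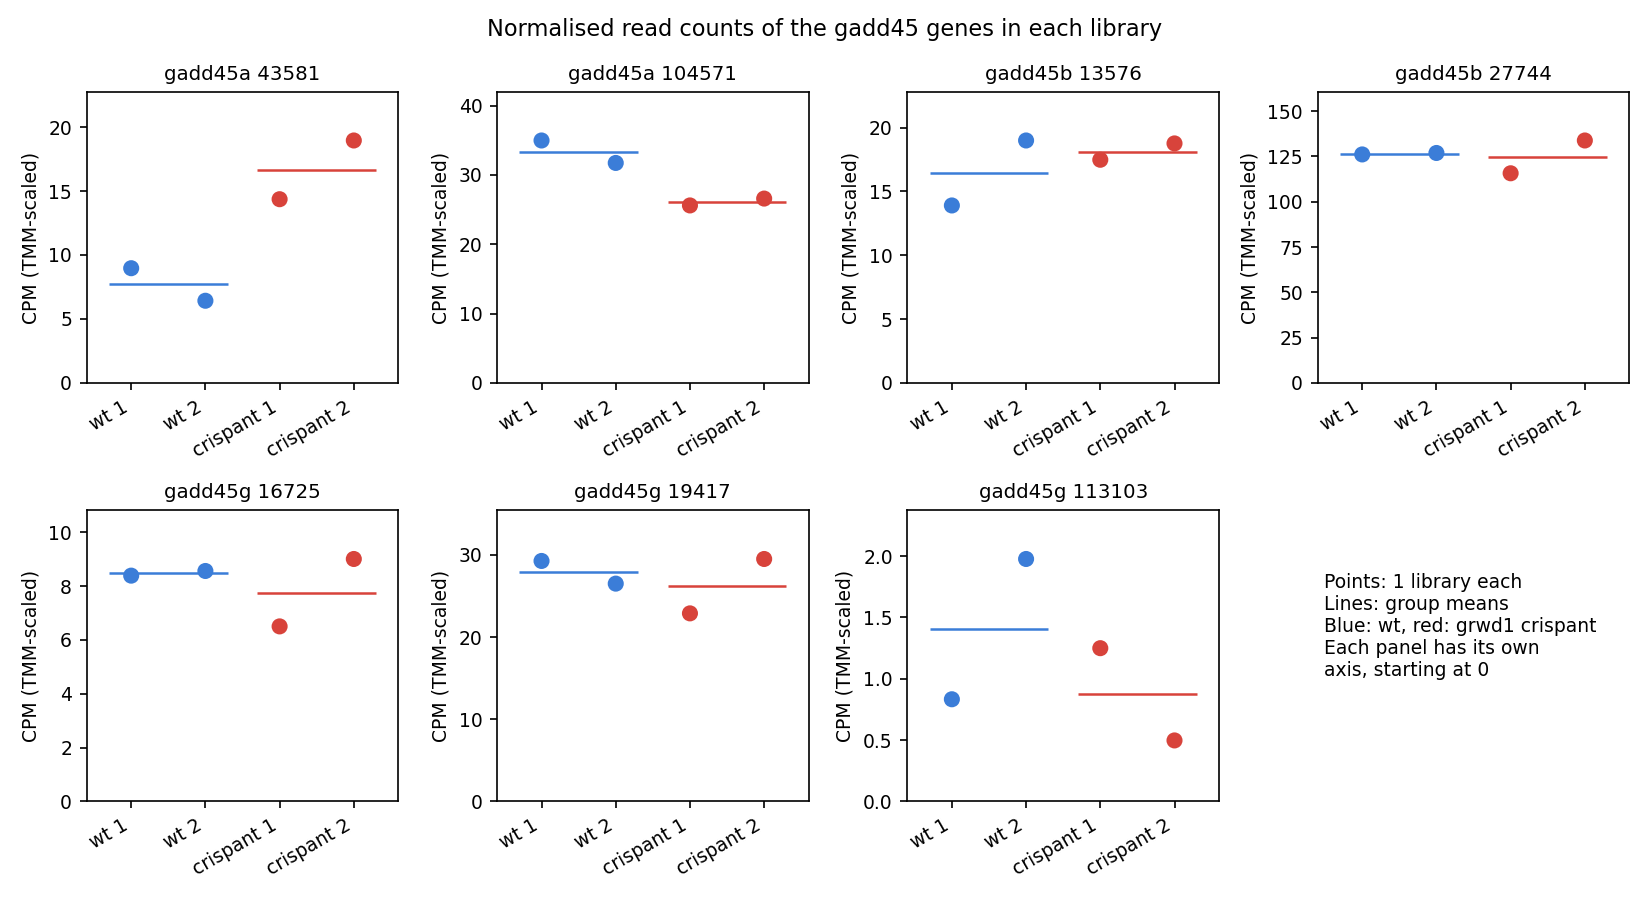
Normalised read counts (CPM, TMM-scaled, vertical axes from 0) of the 7 *gadd45* genes, with 1 point per library (horizontal axis), wt in blue, *grwd1* crispants in red, and lines at the group means. The groups stand apart in the *gadd45a* copies 43581 (6.42 to 8.97 against 14.4 to 18.9 CPM) and 104571 (31.7 to 35.0 against 25.6 to 26.6 CPM), in opposite directions, and overlap in the other 5 genes. Groups did not overlap in 54.6% of all genes tested.

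The division of *gadd45a* reads between the copies thus differed between the groups, while their sum stayed near level. Copy 43581 took 20.4% of the *gadd45a* reads in wt replicate 1 (95% exact Clopper-Pearson interval 17.4 to 23.6) and 16.8% in wt replicate 2 (14.1 to 19.8). In crispants it took 35.9% (32.5 to 39.4) and 41.6% (38.01 to 45.3). The intervals of the groups did not meet, but they cover counting error only. Those of *gadd45b* 13576 did not meet between wt replicate 1 (8.7% to 11.3%) and wt replicate 2 (11.8% to 14.4%) either. The summed level of both copies was 43.9 and 38.1 CPM in wt and 40.0 and 45.5 CPM in crispants, with overlapping groups and means of 41.0 ± 4.09 and 42.8 ± 3.95 CPM (SD, n = 2). A sum over copies stays the same when reads only move between counted copies, so the sum cannot separate moved reads from opposite changes of the copies. How strand and multi-mapping reads were handled in counting is not given in the sources used here, and the similarity of the copies' sequences was not analysed here, so values of single copies are uncertain to the extent that copies share reads. No transcript lengths were at hand, so read counts of different copies do not rank their levels.

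**Figure D2:**
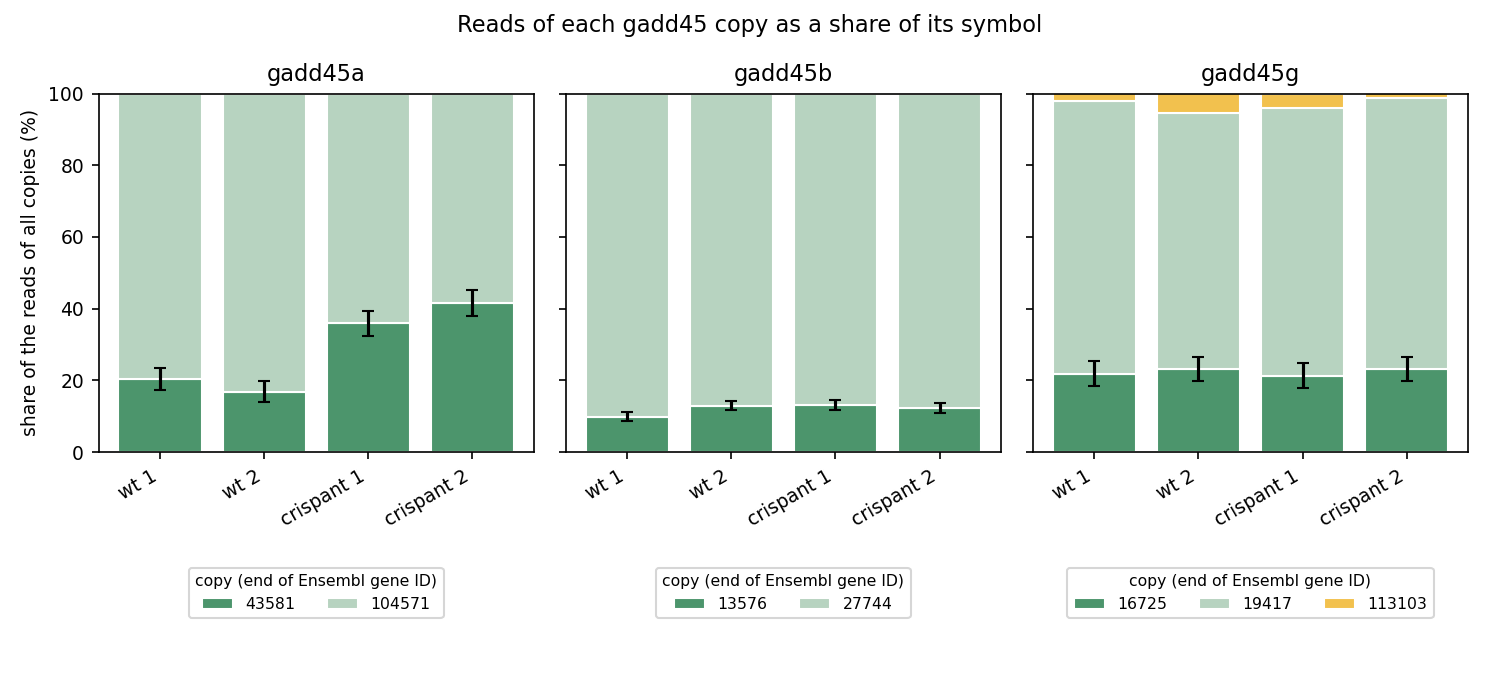
Share of reads (vertical axis, %) that each copy took among all reads of its symbol in each library (horizontal axis), with exact 95% intervals on the lowest bar segment. Copy 43581 went from 16.8% and 20.4% of *gadd45a* reads in wt to 35.9% and 41.6% in crispants. The shares of *gadd45b* 13576 (9.93% to 13.1%) and *gadd45g* 16725 (21.2% to 23.1%) overlapped between the groups.

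*gadd45b*, which in mammals limits JNK signalling and protects cells from death, took the most reads of the family, 62.9% to 66.0% in every library. Copy 27744 alone had 1969 and 2312 counts in wt and 2224 and 2153 in crispants. In CPM these were 126.1 and 126.9 against 116 and 134. The crispant libraries lay on either side of the wt libraries. Its log2 fold change was -0.02, with a 95% interval from -0.18 to 0.14, which is the narrowest of the family. Copy 13576 had 217 and 346 counts in wt and 336 and 302 in crispants, or 13.9 and 19.0 CPM against 17.5 and 18.8 CPM. Here the wt libraries enclosed the crispant libraries, and wt replicate 1 was the low one. The log2 fold change of 0.13 (95% interval -0.19 to 0.46) depended on that library, and without wt replicate 1 it was -0.07. The summed *gadd45b* level was 142.9 CPM in both groups (SD 4.17 in wt and 13.7 in crispants, n = 2).

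*gadd45g*, known in vertebrate embryos from differentiating neural cells and other cells that leave the cell cycle, was close to level in its copies with more reads. Copy 19417 had 457 and 483 counts in wt and 440 and 475 in crispants, or 29.3 and 26.5 CPM against 22.9 and 29.5 CPM. Crispant replicate 1 held the lowest value and crispant replicate 2 the highest. Its log2 fold change was -0.09 (95% interval -0.36 to 0.17). Copy 16725 had 131 and 156 counts in wt and 125 and 145 in crispants, or 8.39 and 8.56 CPM against 6.50 and 9.01 CPM, with a log2 fold change of -0.13 (95% interval -0.60 to 0.33). Both copies were low in crispant replicate 1 and high in crispant replicate 2, and without crispant replicate 1 both log2 fold changes lay above 0, at 0.08 for 19417 and 0.09 for 16725. Copy 113103 was close to the limit of detection, with 13 and 36 counts in wt and 24 and 8 in crispants. Its replicates differed by more than those of 95.9% of the genes tested in wt and 97.7% in crispants, and its log2 fold change of -0.67 had a 95% interval from -1.92 to 0.57. The *gadd45g* level summed over the 3 copies was 38.5 and 37.0 CPM in wt and 30.6 and 39.0 CPM in crispants.

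**Figure D3:**
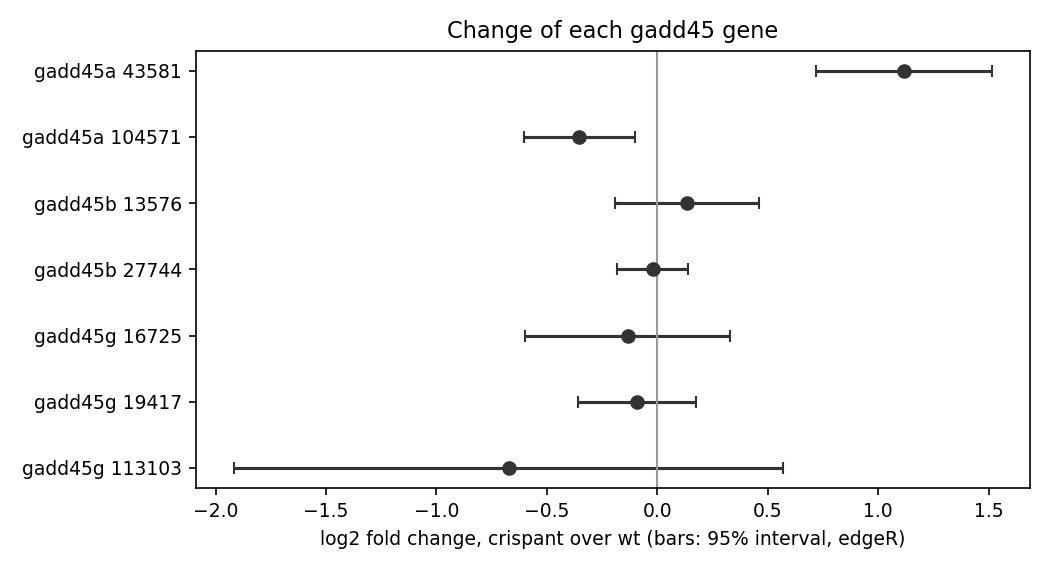
Log2 fold change of each *gadd45* gene, crispant over wt (horizontal axis), as points with 95% intervals from edgeR. The intervals of *gadd45a* 43581 (0.72 to 1.52) and 104571 (-0.60 to -0.10) lie on either side of 0, and those of the other 5 genes include 0.

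Summed over the 7 genes, the family stood at 222.4 and 221.1 CPM in wt and at 204 and 237 CPM in crispants. The wt libraries were nearly alike (221.8 ± 0.938 CPM, SD, n = 2), the crispant libraries lay on either side of them (220.5 ± 23.5), and the log2 ratio of the means was -0.01, or 0.06 with library totals in place of TMM factors. All 7 genes passed the low-count filter of edgeR. By its quasi-likelihood test at an adjusted p of 0.05, 1 of 7 was called higher and 1 lower, against 16.4% of all genes tested (8.98% higher and 7.44% lower). Groups did not overlap in 2 of the 7 genes and in 54.6% of all genes tested. Since the family was selected on this comparison, nothing is read from these counts. The median log2 fold change of the 7 genes was -0.09, against 0.0046 over all genes tested.

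Other symbols with a pair of copies give the scale for these differences. The gap between the *gadd45a* copies is what the family was selected on, so its place among them is a description and supports nothing. Among 1502 symbols with exactly 2 gene IDs tested, the log2 fold changes of the copies lay a median of 0.26 apart, and 1.47 apart in *gadd45a*. Of these symbols, 98.4% had a smaller gap than *gadd45a*, and 32.1% a smaller gap than *gadd45b* (0.16). In 100 symbols both copies were called, in 86 of them in the same direction and in 14 (0.932% of 1502) in opposite directions. *gadd45a* was 1 of the 14, behind *rbp2*, a retinol-binding protein gene, with a gap of 2.29, and ahead of *snx8* (1.36), a sorting nexin gene.

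Among the genes compared, *gadd45a* 43581 was most like *kifc1*, a kinesin gene of the mitotic spindle, by its profile over the 4 libraries. The root mean square distance was 0.0574 in centred log2 CPM. The next were *hoga1* (0.0798), which encodes a mitochondrial enzyme of hydroxyproline breakdown, and *galc* (0.0810), which encodes a lysosomal galactosylceramidase. *kifc1* had 5.96 and 4.50 CPM in wt and 10.5 and 12.6 CPM in crispants, following the same order of libraries. With 15502 genes compared over only 4 libraries, such likeness is a description.

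Cell cycle genes were looked at next, by a list of 16. It holds partners of Gadd45 proteins and also other regulators, such as *ccna2* and *cdkn1b*. Of the 16, 2 rose, 1 fell and 13 did not pass edgeR's test, with a median log2 fold change of 0.42 against 0.0046 for all genes tested. Here and in the lists that follow, the shares over all genes beside which the counts stand are 8.98% higher and 7.44% lower. *cdkn1a*, which encodes p21, had 44.5 and 45.3 CPM in wt and 62.4 and 65.5 CPM in crispants. It rose by 0.51 (standard error 0.10, adjusted p = 6.92e-05 from edgeR). The low-expressed *ccna2*, which encodes cyclin A2, rose by 1.22 (adjusted p = 0.0180 from edgeR), from 1.99 and 1.81 CPM to 4.37 and 4.47 CPM. A copy of *cdkn1b* (ENSDARG00000054271), which encodes the cell cycle inhibitor p27, was lower by a log2 of -0.24 (adjusted p = 0.0473 from edgeR). The call of *ccna2* was lost with DESeq2, without any 1 library and at an adjusted p of 0.01, and that of *cdkn1b* under 7 of 11 alternatives and at 0.01. *pcna*, which encodes the sliding clamp of DNA replication, had 23.3 and 29.7 CPM in wt and 33.3 and 32.0 CPM in crispants, a log2 fold change of 0.30 that did not pass (adjusted p = 0.106 from edgeR). *cdk1* (0.86, adjusted p = 0.0789 from edgeR) and *ccnb1* (0.82, adjusted p = 0.116), the kinase and cyclin of mitotic entry, did not pass at 1.86 to 5.98 and 2.14 to 4.85 CPM over all libraries.

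Of 19 genes tested from a list for the MTK1, p38 and JNK pathways, 1 rose, 1 fell and 17 did not pass, with a median of 0.02. The share called, 10.5%, rests on these 2 genes and stands beside 16.4% of all genes tested. *map3k4*, which encodes the kinase MTK1 that Gadd45 proteins bind, had 52.3 and 43.5 CPM in wt and 47.9 and 52.5 CPM in crispants (log2 fold change 0.07, 95% interval -0.14 to 0.28, adjusted p = 0.732 from edgeR). A copy of *mapk12* (ENSDARG00000042021), a p38 kinase gene, was higher by 0.58 (adjusted p = 0.0294 from edgeR). *mapk10*, the JNK gene of neurons, was lower by a log2 of -0.43 (adjusted p = 0.0331). Both calls were lost with DESeq2, at an adjusted p of 0.01 and without wt replicate 2, and further that of *mapk12* without crispant replicate 1 and that of *mapk10* without crispant replicate 2 or under library totals. The neuronal marker list was lower as well, with 7 of 8 markers down and a median of -0.33, and its part in the value of *mapk10* was not tested.

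Of 29 genes of DNA demethylation and excision repair, 1 rose, 2 fell and 26 did not pass, with a median of -0.08. *tet3*, which encodes a methylcytosine dioxygenase, had 128 and 144 CPM in wt and 110 and 99.7 CPM in crispants. Its log2 fold change was -0.37 (adjusted p = 3.10e-04 from edgeR), and its call was lost only without wt replicate 2. *taf12*, a subunit gene of the general transcription factor TFIID that Gadd45a binds in mammals, had a log2 fold change of -0.27 (adjusted p = 0.0325), and *dnmt3b* (ENSDARG00000036791), a DNA methyltransferase gene, one of 0.72 (adjusted p = 0.0119). The calls of both were lost with DESeq2, at an adjusted p of 0.01 and without crispant replicate 2, that of *taf12* also without wt replicate 2 or crispant replicate 1 and under library totals, and that of *dnmt3b* without wt replicate 1.

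**Figure D4:**
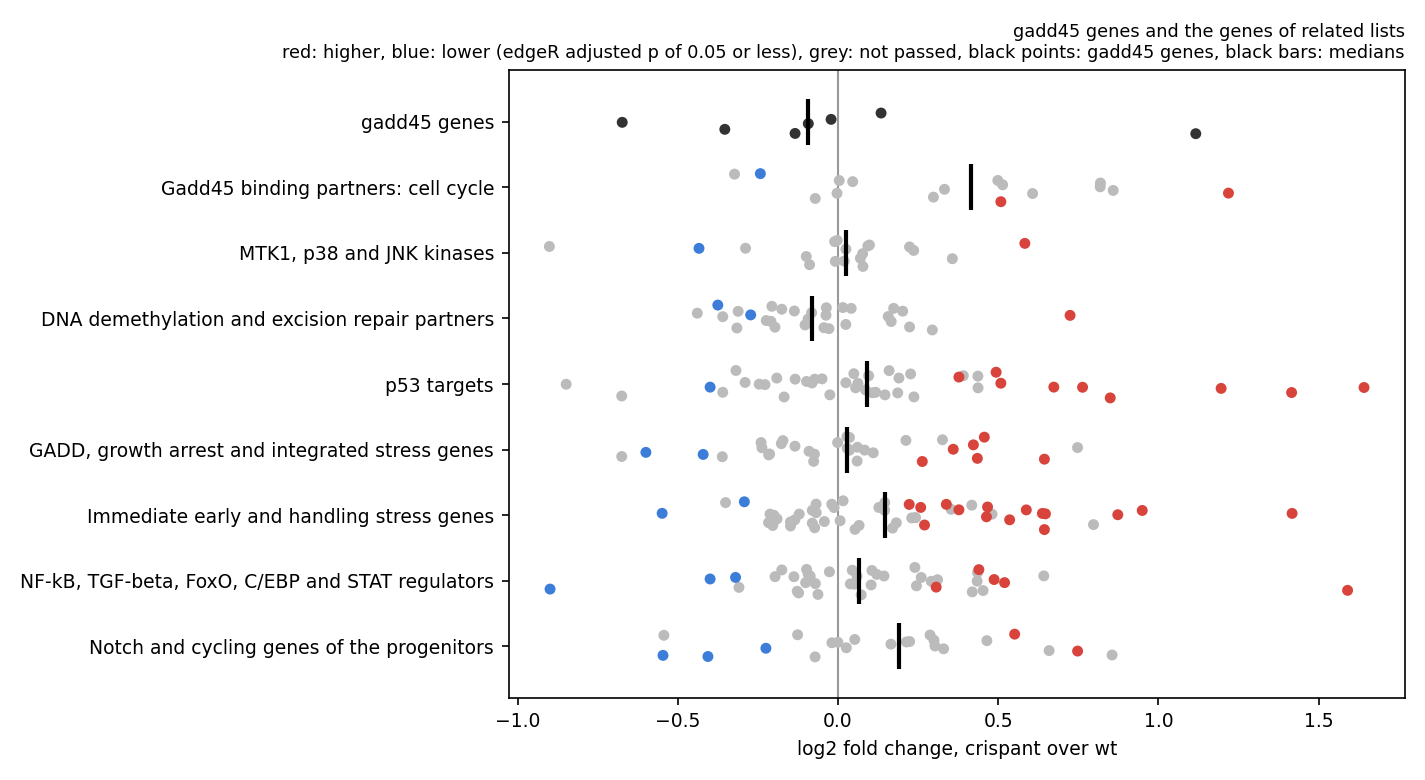
Log2 fold changes, crispant over wt (horizontal axis), of the 7 *gadd45* genes (black points, top row) and of the genes of 8 lists (1 point per gene tested; red higher and blue lower at an edgeR adjusted p of 0.05, grey not passed), with medians as black bars. The immediate early list holds 15 higher and 2 lower genes of 51, the p53 target list 9 higher and 1 lower of 42, and the MTK1, p38 and JNK list 1 of each among 19.

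Among p53 targets other than *gadd45a*, 9 of 42 rose (21.4%, against 8.98% of all genes) and 1 fell (2.38%, against 7.44%), while 32 did not pass, with a median of 0.09. Some genes stand on several lists and count in each, such as *cdkn1a*, here and among the cell cycle genes. The smallest p-values were those of *rps27l*, *ccng1* and *mdm2*. *rps27l*, which encodes a ribosomal protein paralog that p53 induces in mammals, had 44.6 and 43.6 CPM in wt and 113 and 122 CPM in crispants. *ccng1*, which encodes cyclin G1, had 451 and 474 CPM in wt and 817 and 850 CPM in crispants. *mdm2*, whose product marks p53 for degradation, had 44.6 and 40.5 CPM in wt and 63.6 and 72.1 CPM in crispants. In all of these the crispant libraries stood above the wt libraries, with log2 fold changes of 1.42, 0.85 and 0.67. These were named for their small p-values and do not stand for the list. The single gene that fell was *foxo3a* (-0.40, adjusted p = 2.84e-05 from edgeR), which encodes a transcription factor that itself induces *Gadd45a* in mammals. Members of this list had been seen in earlier results of these libraries, so its direction is no independent support.

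Other stress genes were gathered in a list of growth arrest and integrated stress response genes, of which 6 of 32 rose, 2 fell and 24 did not pass, with a median of 0.03. *hspa5*, the chaperone BiP of the endoplasmic reticulum, had 226 and 207 CPM in wt and 288 and 306 CPM in crispants (log2 fold change 0.46, adjusted p = 5.65e-07 from edgeR). *xbp1*, a transcription factor gene of the unfolded protein response, rose by 0.43 (adjusted p = 3.54e-06). *atf3*, a stress-induced transcription factor gene, went from 24.1 and 20.2 CPM to 34.8 and 34.4 CPM (0.64, adjusted p = 1.08e-04). The other genes of the GADD series were picked out after their values were seen. *ddit3*, also known as GADD153, was higher by 0.26 (adjusted p = 0.0186 from edgeR), a call lost at an adjusted p of 0.01. *ppp1r15a*, also known as GADD34, had 76.0 and 69.7 CPM in wt and 61.4 and 64.1 CPM in crispants and did not pass (-0.21, adjusted p = 0.110). *phgdh*, of serine synthesis (-0.60, adjusted p = 2.99e-04), and *vldlr*, a lipoprotein receptor gene (-0.42, adjusted p = 2.77e-04), fell.

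The list with the most calls was that of immediate early and handling stress genes, a class whose mRNAs rise within minutes to hours of a stimulus and to which *gadd45* genes are often counted. Of 51 genes tested, 15 rose (29.4%, against 8.98% of all genes), 2 fell and 34 did not pass, with a median of 0.15. The count of higher genes ran from 12 to 20 over the alternatives tried. A copy of *socs3* (ENSDARG00000025428), which encodes a feedback inhibitor of cytokine signalling, had 86.1 and 82.3 CPM in wt and 130 and 134 CPM in crispants (log2 fold change 0.65, adjusted p = 2.07e-09 from edgeR). *klf2a*, which encodes a flow-responsive transcription factor, rose by 0.64 (adjusted p = 1.01e-08), and *dusp1*, which encodes a phosphatase that switches off p38 and JNK, by 0.54 (adjusted p = 1.71e-07). Genes of the AP-1 transcription factor were picked out after their values were seen. *fos* (ENSDARG00000031683, 0.47), *fosl1* (0.87), *jun* (0.27) and 1 copy of *junb* (ENSDARG00000074378, 0.46) passed the test. The other copy of *junb* (-0.13), *fosaa* (-0.22), *fosb* (0.07), *fosl2* (-0.04) and *jund* (-0.08) did not. *egr4*, a neuronal activity gene, fell (-0.55, adjusted p = 7.56e-06 from edgeR). The neuronal marker list was lower too, and its part in the value of *egr4* was not tested. *ier5l* was also called lower (-0.29, adjusted p = 0.0477), but not under 8 of 11 alternatives. Beside these, the *gadd45b* copies stood at -0.02 (27744) and 0.13 (13576), with intervals that reach up to 0.14 and 0.46.

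Of 40 genes for regulators of *gadd45* transcription and mRNA, 5 rose, 3 fell and 32 did not pass, with a median of 0.07. *cebpb* (0.44, adjusted p = 3.73e-05 from edgeR) and *stat3* (0.49, adjusted p = 0.00146) rose in each alternative tried and in both crispant libraries. A copy of *smad6* (ENSDARG00000031763), which encodes an inhibitor of BMP signalling, had a log2 fold change of 0.52 (adjusted p = 0.00543). A copy of *myc* (ENSDARG00000045695), which encodes a transcription factor of growth, was lower by a log2 of -0.32 (adjusted p = 0.0327). Also lower was *foxo3a*, given above with the p53 targets. The calls of these copies of *smad6* and *myc* were lost with DESeq2 and without wt replicate 2. That of *smad6* was also lost without crispant replicate 2, and that of *myc* without any 1 library, under library totals and at an adjusted p of 0.01. The NF-kB subunit genes were picked out after their values were seen. *rela* had 5.44 and 5.82 CPM in wt and 8.48 and 9.13 CPM in crispants and did not pass (0.64, adjusted p = 0.0596 from edgeR). *nfkb1* (0.14), *nfkb2* (0.24), *relb* (0.26) and *rel* (0.44) lay closer to level and did not pass either.

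Of 22 Notch and neural progenitor genes, a setting in which *gadd45g* is known to act, 2 rose, 3 fell and 17 did not pass, with a median of 0.19. *notch2*, a receptor gene, rose by 0.55 (adjusted p = 6.86e-06 from edgeR). *dlb*, which encodes a Notch ligand, was called higher (0.75, adjusted p = 0.00784), a call lost with DESeq2 and without wt replicate 2 or crispant replicate 2. *neurod1*, which encodes a transcription factor of neurons and endocrine cells, fell (-0.55, adjusted p = 1.39e-06). *dld* (-0.22, adjusted p = 0.0135), another ligand gene, and *neurod4* (-0.41, adjusted p = 0.0149) were called lower, but not under library totals, at an adjusted p of 0.01, or without wt replicate 2 or crispant replicate 1. Leaving out wt replicate 1 also ended the call of *dld*, and DESeq2 that of *neurod4*. Neuronal markers (7 of 8 lower, median -0.33) and photoreceptor markers (5 of 9 lower, median -0.56) were lower as well, against 7.44% of all genes. Their part in the values of *neurod1*, *neurod4* and *dld* was not tested. In all 3 *gadd45g* copies the wt and crispant libraries overlapped.

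**Figure D5:**
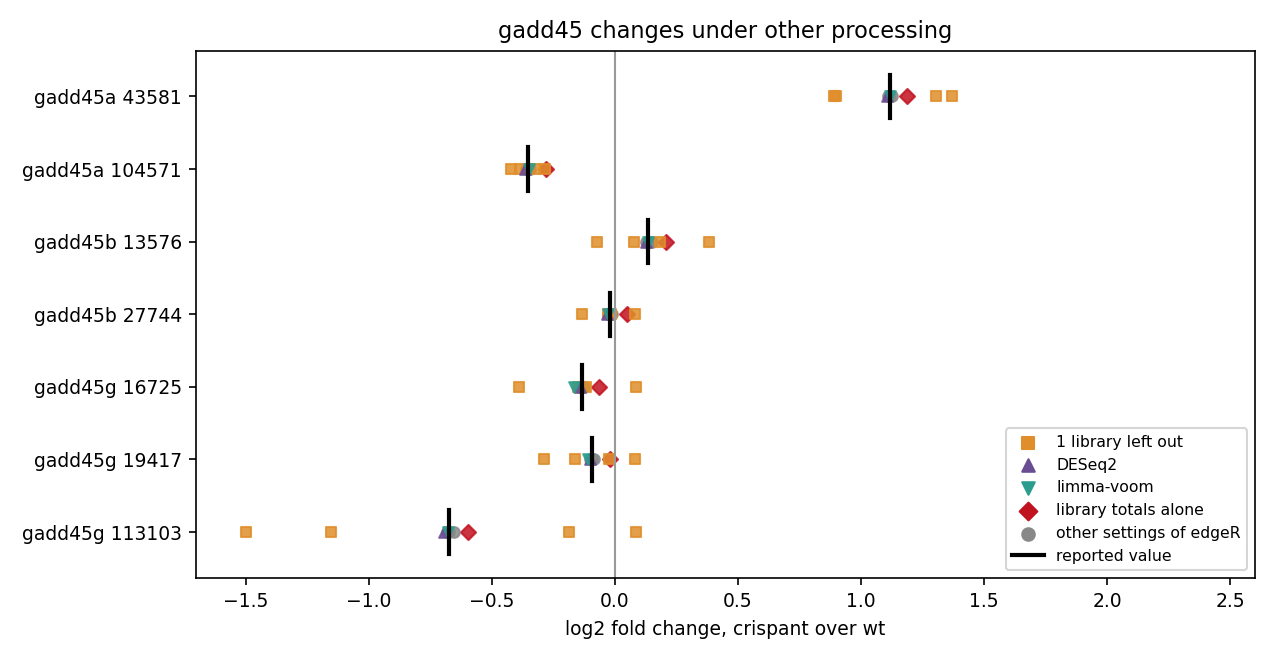
Log2 fold change of each *gadd45* gene, crispant over wt (horizontal axis), as reported (black bars) and under 11 alternatives (10 for copy 113103), with squares for fits that leave out 1 library. The values of *gadd45a* 43581 run from 0.89 to 1.37 and those of 104571 from -0.42 to -0.28, whereas each of the other 5 genes takes both signs.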

How the data were processed

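The members and the gene lists were chosen with earlier results of these data known. The deposited values are raw read counts per gene, which the authors obtained with featureCounts from HISAT2 alignments to GRCz11, after trimming (Trimmomatic 0.39). The labels name a stranded total RNA kit and call the libraries both polyA-enriched and rRNA-depleted. Of 32667 lines, 147 exact repeats were dropped. Symbols came from a name table, which matched 29201 of 32520 gene IDs (89.8%) and is shown in lower case. Of 267 list names, 12 matched no gene and were left out. A list name with a copy letter that the table lacks took all genes of the base symbol.

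Counts were filtered with filterByExpr, scaled with TMM factors and tested with the quasi-likelihood test of edgeR 4.0.16 in R 4.3.3, with group as the only term and Benjamini-Hochberg adjustment over all 20479 genes. The alternatives were DESeq2 1.42.0, limma-voom (limma 3.58.1), RLE size factors, library totals, no filter, a minimum of 10 counts in each library, a replicate block, each library left out, and an adjusted p of 0.01.

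Named are all members, *grwd1*, from each list up to 3 called genes per direction with the smallest p, 8 genes fixed by name, the 3 genes nearest in profile to the member with the largest change, and genes said to be picked out later. A gene that this rule names is not reported here.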

Additional observations from a re-analysis of the deposited data

How the results depend on the processing

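The family was selected on the values of the *gadd45a* copies, so how these vary with the processing is a description and supports nothing. The log2 fold change of *gadd45a* 43581 ran from 0.89 without wt replicate 2 to 1.37 without wt replicate 1. *gadd45a* 104571 was lower throughout (-0.42 to -0.28), but 0 *gadd45* genes were called lower under library totals, with DESeq2, at an adjusted p of 0.01 and without any 1 library (0 in each of these 4 fits). The other 5 members changed sign when 1 library was left out, and *gadd45b* 27744 also under library totals (0.05). *gadd45g* 113103 could not be fitted at 10 counts in every library. Without crispant replicate 2, summed levels moved to -0.30 on the log2 scale for *gadd45g* (leaving out 1 library, -0.30 to 0.0469) and to -0.12 for the family (-0.12 to 0.10). Over all genes, 1839 were higher and 1524 lower, against 1107 and 1017 with DESeq2, 1193 and 938 at 0.01, and 2355 and 1000 under library totals, where higher genes were 70.2% of the calls in place of 54.7%. Leaving out 1 library gave 1266 to 1375 higher and 935 (without wt replicate 1) to 1327 lower, with 1003 without wt replicate 2. Over the lists together, without repeats of shared genes, 38 of 243 genes tested were higher (15.6%) and 14 lower (5.76%). The shares over all genes were 8.98% and 7.44%. The lower count was 7 under library totals, 8 with DESeq2, 7 at 0.01 and 6 to 12 without 1 library, the lowest without wt replicate 2 and 9 without crispant replicate 1.

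The sources do not say that equal replicate numbers mark shared pools, and same-numbered libraries did not deviate together (correlation over genes -0.00665). With the replicate block, 1809 genes were higher and 1451 lower, and 1 *gadd45* gene was called in each direction.

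The SD over 2 libraries and the low counts of *gadd45g* 113103 limit what can be said of single copies.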

Other observations

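*gadd45gip1*, left out of the family by its name, had 15.5 and 14.6 CPM in wt and 12.9 and 14.1 CPM in crispants, a log2 fold change of -0.16 (95% interval -0.51 to 0.19). Further marker lists that moved in these whole larvae were those of skin (5 of 6 higher, 1 lower, summed level 5410 to 5564 CPM in wt and 6245 to 6609 in crispants), of the exocrine pancreas (4 of 4 lower, 3796 to 3970 and 2139 to 2359 CPM), of photoreceptors (5 of 9 lower, 1331 to 1392 and 859 to 930 CPM), of the lens (5 of 9 lower, 4705 to 4895 and 3871 to 4219 CPM) and of hepatocytes (3 of 6 higher, 1 lower, 1860 to 1874 and 2408 to 2510 CPM). Myeloid markers summed to 38.1 to 42.9 CPM in wt and 54.7 to 58.6 CPM in crispants, with 1 of the 5 tested called higher. Of 6 muscle markers, 2 were called higher, and the summed levels overlapped (41420 to 43710 CPM in wt and 42930 to 46630 in crispants). Over all genes tested, 8.98% were called higher and 7.44% lower. The part of these marker shifts in the values of the *gadd45* genes was not tested.

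Among the immediate early genes, the largest called difference was that of *irf1b*, which encodes an interferon regulatory factor, with 6.08 and 5.16 CPM in wt and 16.4 and 13.5 CPM in crispants (log2 fold change 1.42, adjusted p = 2.95e-07 from edgeR). This gene was chosen for its size of change.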
